A study of Homo sapiens with 6 samples.

Results

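INHBE, GDF15, STC2, FGF21, ASNS, PCK2, SESN2, DDIT4, VLDLR and XPOT, 10 genes known as targets of the stress transcription factor ATF4, were followed in RNA-seq of Ishikawa cells, an established human endometrial adenocarcinoma line. They were taken by gene symbol from a table of 61806 genes, and each symbol matched 1 gene. The set had been selected on RNA levels and fold changes of these same 6 libraries. The 6 libraries comprised 3 of Ishikawa cells labelled EV, a term the labels do not explain, and 3 of Ishikawa derivatives with overexpression of TEFM, a factor that elongates mitochondrial transcripts. Cells of both groups were grown in DMEM with fetal bovine serum and had no drug treatment, and the submitters call the replicates independent and biological. The labels name neither the promoter that drives TEFM nor whether the derivatives are a pool or 1 clone. If libraries of a group share a derivation, the spread between them does not cover variation between derivations.

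ATF4 is translated when kinases that sense amino acid shortage, endoplasmic reticulum stress, haem shortage or mitochondrial damage phosphorylate the initiation factor eIF2. It pairs with C/EBP proteins on a composite DNA element, the C/EBP-ATF response element, and switches on genes for amino acid synthesis and uptake, tRNA charging and restraint of growth. Several targets encode secreted proteins, and GDF15 and FGF21 are known as circulating signals of mitochondrial stress. RNA levels of these genes measure neither ATF4 protein nor its binding.

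The promoters of ASNS and FGF21 are shown because they carried a match to the C/EBP-ATF element TGATGNAAN in the 250 bases before the transcription start, and that of GDF15 because GDF15 was the member with no match whose level was alike in both groups. Sequences are from RefSeq (GRCh38.p14), 5′ to 3′ on the strand of the gene, with the match in capitals. Promoter rows were found for 9 of the 10 members, with none for INHBE and 2 starts for ASNS. STC2, PCK2, SESN2, DDIT4, VLDLR and XPOT, all lower in TEFM, had no match either.
ASNS (chr7:97872409-97872658, minus strand): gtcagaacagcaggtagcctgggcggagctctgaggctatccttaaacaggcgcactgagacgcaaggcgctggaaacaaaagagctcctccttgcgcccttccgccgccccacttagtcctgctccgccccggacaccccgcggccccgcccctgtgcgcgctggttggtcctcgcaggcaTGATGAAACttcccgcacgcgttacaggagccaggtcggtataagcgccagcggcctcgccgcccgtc
FGF21 (chr19:48755274-48755523, plus strand): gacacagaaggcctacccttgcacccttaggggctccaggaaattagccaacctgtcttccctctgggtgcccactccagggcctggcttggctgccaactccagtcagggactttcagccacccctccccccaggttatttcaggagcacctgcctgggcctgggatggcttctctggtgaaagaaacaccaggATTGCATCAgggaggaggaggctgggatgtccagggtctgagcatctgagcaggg
GDF15 (chr19:18385908-18386157, plus strand): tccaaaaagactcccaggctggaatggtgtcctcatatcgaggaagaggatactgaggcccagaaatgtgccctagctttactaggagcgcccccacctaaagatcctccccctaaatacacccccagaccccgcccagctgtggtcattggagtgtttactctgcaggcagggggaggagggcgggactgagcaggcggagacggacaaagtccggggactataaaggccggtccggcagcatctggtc
The ASNS match TGATGAAAC lay from -68 to -60 on the gene's strand, and the FGF21 match ATTGCATCA from -55 to -47 on the opposite strand, counted back from the start. On both strands, 3.13% of 35116 RefSeq promoters of this length held TGATGNAAN, and 2 of the 10 member windows did. The CCAAT box, searched as CCAAT on both strands, was in 5 member windows (SESN2, STC2, DDIT4, PCK2 and GDF15) and in 32% of all promoters. The hypoxia response core ACGTG was in 1 member window, that of DDIT4, and in 18.5% of all. Neither the CRE, TGACGTCA (1.65% of all), nor the endoplasmic reticulum stress element (0.074% of all), which contains a CCAAT box, was in a member window. These counts say only which letters stand in these windows.

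Depth was 14252668 to 17891047 counts per library, and edgeR's quasi-likelihood test was run on the 14254 genes whose FPKM, a count scaled to exon length and library total, averaged 1 or more across libraries. All 10 members were among them. FGF21 passed this filter, with a mean of 1.07 FPKM over the 6 libraries, through its EV level, so its difference is in part set by the filter. TEFM itself stood at 4.13, 4.24 and 4.55 FPKM in EV and at 23.65, 22.72 and 23.98 FPKM in TEFM. Of 12 endometrial epithelial markers, 9 were tested, among them EPCAM, KRT8, CDH1 and PAX8, while the hormone receptor genes ESR1 and PGR and the gland factor FOXA2 were at or near 0. Their summed level was 624 to 690 FPKM in EV and 776 to 816 in TEFM. Summed levels in EV and TEFM were 1.84 to 2.01 and 1.77 to 2.37 FPKM for 7 fibroblast markers (DCN at 0), 0.36 to 0.58 and 0.14 to 0.79 for 7 immune markers (CD3E, CD3D and MS4A1 at 0), and 0.27 to 0.39 and 0.45 to 0.53 for 5 endothelial markers.

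Of the members, 9 were lower in the TEFM libraries and 1, GDF15, stood at the same level. Their median log2 fold change, TEFM minus EV, was -1.35, against -0.00 over all tested genes. Because these genes were chosen with this comparison already known, their differences are given as a description, with no test. At an edgeR adjusted p of 0.05, 9 of 10 were called lower and 0 higher, beside 21.7% of all tested genes called lower and 21.7% called higher, and nothing is read from that count. The groups did not overlap, with TEFM lower, for the same 9, beside 30.5% of all tested genes (51.6% in either direction). A called log2 fold change of -1 or lower was reached by 7 members, beside 1.58% of all tested genes. The smallest change among these 7 was that of DDIT4 (-1.25), and the next member outside was XPOT (-0.57). In bulk RNA, a smaller number of expressing cells and less RNA per cell cannot be told apart.

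**Figure D1:**
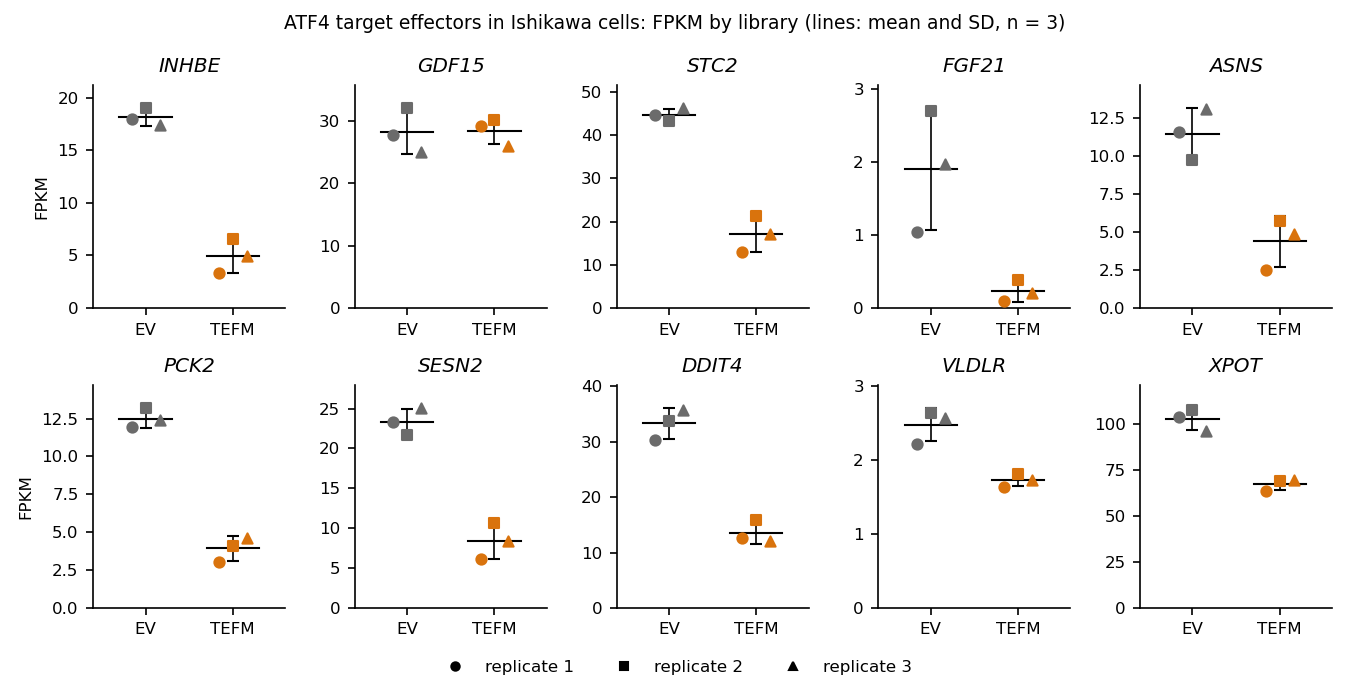
FPKM of each of the 10 members in the 3 EV (grey) and 3 TEFM (orange) libraries; symbols mark replicates, horizontal lines the mean and bars the SD (n = 3). For 9 genes every TEFM library lies below every EV library, and for GDF15 the groups overlap.

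Among the secreted factors, INHBE, which encodes the activin beta E chain (ENSG00000139269, chromosome 12, 57452323 to 57459280), stood at 18.00, 18.99 and 17.40 FPKM in EV and at 3.34, 6.60 and 4.91 FPKM in TEFM. The EV libraries lay close together. TEFM replicate 2 was 1.99-fold above TEFM replicate 1 in TMM-scaled CPM (counts scaled to library total, corrected for composition by TMM). The mean fell from 18.1 ± 0.803 to 4.95 ± 1.63 FPKM (SD, n = 3), 27.3% of the EV level, with a log2 fold change of -1.83 (standard error 0.128). STC2, stanniocalcin 2, a secreted glycoprotein that restrains IGF release from its binding proteins (ENSG00000113739, chromosome 5, 173314723 to 173328447), stood at 44.58, 43.36 and 46.18 FPKM in EV and at 12.85, 21.39 and 17.13 FPKM in TEFM. It was the second most abundant member in EV and the third in TEFM. Its log2 fold change was -1.34 (standard error 0.094), TEFM being 38.3% of EV.

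FGF21, an endocrine fibroblast growth factor of fasting and stress (ENSG00000105550, chromosome 19, 48755524 to 48758333), had the lowest mean of the members in both groups, though its EV range overlapped that of VLDLR. It had 25, 55 and 43 reads counted in EV and 2, 9 and 4 in TEFM, or 1.04, 2.70 and 1.98 FPKM against 0.09, 0.38 and 0.21. Every TEFM library lay below every EV library, but the EV libraries themselves spanned 2.58-fold in CPM. Summed over libraries, 123 counts in EV and 15 in TEFM gave a TEFM to EV ratio of 0.123 (exact 95% interval 0.0667 to 0.21, counting error only). The fitted log2 fold change was -2.98 (standard error 0.476). With each library left out in turn, it ranged from -3.63 (without TEFM replicate 2) to -2.58. On the log2(FPKM + 1) scale it was -1.21.

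GDF15, a TGF-beta family hormone that acts on the brainstem to lower food intake (ENSG00000130513, chromosome 19, 18374731 to 18389176), stood at 27.69, 32.00 and 25.01 FPKM in EV and at 29.21, 30.15 and 25.99 FPKM in TEFM. The TEFM values lay inside the EV range. The means were 28.2 ± 3.53 and 28.4 ± 2.18 FPKM and the log2 fold change 0.05 (standard error 0.0742). On summed counts the ratio was 1.02 (exact 95% interval 0.965 to 1.07, counting error only). GDF15 was the fourth most abundant member in EV, where its range overlapped that of DDIT4 and met that of SESN2 at 25.01 FPKM. In TEFM it was the second, apart from both neighbours.

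Both metabolic enzymes were lower. ASNS, asparagine synthetase, which makes asparagine from aspartate and glutamine (ENSG00000070669, chromosome 7, 97851677 to 97872542), stood at 11.60, 9.77 and 13.09 FPKM in EV and at 2.50, 5.75 and 4.89 FPKM in TEFM. The groups did not overlap, and the TEFM values spanned 2.31-fold in CPM. The log2 fold change was -1.35 (standard error 0.158). PCK2, the mitochondrial phosphoenolpyruvate carboxykinase, which turns oxaloacetate into phosphoenolpyruvate (ENSG00000100889, chromosome 14, 24094053 to 24110598), stood at 11.92, 13.17 and 12.39 FPKM in EV and at 3.06, 4.10 and 4.64 FPKM in TEFM. Its log2 fold change was -1.63 (standard error 0.1). The ASNS and PCK2 ranges overlapped each other within each group.

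The restraints of mTORC1, the growth kinase complex, were lower too. SESN2, sestrin 2, a leucine sensor that holds back mTORC1 through the GATOR complexes (ENSG00000130766, chromosome 1, 28259518 to 28282491), stood at 23.26, 21.70 and 25.01 FPKM in EV and at 6.19, 10.66 and 8.39 FPKM in TEFM. DDIT4, also called REDD1, which holds back mTORC1 through the TSC complex (ENSG00000168209, chromosome 10, 72273919 to 72276036), stood at 30.35, 33.79 and 35.71 FPKM in EV and at 12.68, 15.86 and 12.12 FPKM in TEFM. For both genes the highest TEFM library lay well below the lowest EV library. Log2 fold changes were -1.43 for SESN2 (standard error 0.108) and -1.25 for DDIT4 (standard error 0.0826).

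VLDLR and XPOT changed least among the members that were lower. VLDLR, a lipoprotein and reelin receptor (ENSG00000147852, chromosome 9, 2621182 to 2660056), stood at 2.22, 2.63 and 2.57 FPKM in EV and at 1.64, 1.81 and 1.73 FPKM in TEFM, a log2 fold change of -0.48 (standard error 0.0788). XPOT, exportin-t, which carries tRNA out of the nucleus (ENSG00000184575, chromosome 12, 64404392 to 64451125), was the most abundant member in both groups, at 103.88, 108.00 and 96.34 FPKM in EV and at 63.56, 68.89 and 69.57 FPKM in TEFM. Its log2 fold change was -0.57 (standard error 0.0436). TEFM was 69.8% of EV for VLDLR and 65.5% for XPOT, whereas the other 7 lower members stood at 11.9% to 40.7%.

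Annotated genes overlap 6 members (INHBE, GDF15, ASNS, PCK2, VLDLR and XPOT), and the labels do not say if strand was kept, so such reads may be shared. The most abundant was an unnamed gene on the strand opposite to XPOT (6.31 FPKM over the 6 libraries), and the others were at or below 1.67 FPKM.

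In the EV group, replicate 2 had the highest TMM-scaled CPM for 6 members, replicate 3 for 4 and replicate 1 for 0. No share of all tested genes was computed for this EV ranking. Within the TEFM group several members ranked the libraries alike. Replicate 1 had the lowest TMM-scaled CPM of the 3 TEFM libraries for 8 of the 10 members, beside 34.8% of all tested genes, and replicate 2 the highest for 8, beside 32.5%. In 6 members (INHBE, STC2, FGF21, ASNS, SESN2 and VLDLR) both held, beside 17.7% of all tested genes. This order was read from the members' own values and then counted in them, so the counts only describe these libraries. The members are not replicates of each other. Replicate 2 stood above replicate 1 by 1.99-fold for INHBE, 2.31-fold for ASNS, 1.73-fold for SESN2 and 1.67-fold for STC2, and by 4.35-fold for FGF21, there on 9 and 2 counts. It was 1.35-fold for PCK2, 1.26-fold for DDIT4, 1.11-fold for VLDLR, 1.09-fold for XPOT and 1.04-fold for GDF15. The median log2 ratio of replicate 2 to replicate 1 was 0.59 over the members and -0.00 over all tested genes. TEFM RNA stood at 23.65, 22.72 and 23.98 FPKM in TEFM replicates 1, 2 and 3, and its relation to this spread was not tested.

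A step of at least 0.5 log2 units from TEFM replicate 1 to replicate 2, a size chosen after the values were seen, was found for 5 members, beside 5.03% of all tested genes. Among 57 other tested genes of the ATF4 programme, in 4 lists of regulators, enzymes, transporters and tRNA synthetases, 26 had replicate 1 lowest and replicate 2 highest, but 1 reached that step, the ATF4 partner gene DDIT3 (log2 ratio 0.57). Their median log2 ratio was 0.07. Replicate 1 was also lowest and replicate 2 highest for 6 of 15 tested genes of the endoplasmic reticulum unfolded protein response. The same order held for 4 of 13 hypoxia targets and 4 of 16 p53 targets, beside 17.7% of all tested genes. The SD of INHBE was 4.43% of its mean in EV and 32.9% in TEFM, and that of ASNS 14.5% and 38.4%. This share was smaller in TEFM for GDF15 (12.5% and 7.67%), VLDLR (8.95% and 4.93%) and XPOT (5.76% and 4.89%). It was larger in TEFM for the remaining members. Without TEFM replicate 1, log2 fold changes were -1.60 for INHBE and -1.07 for ASNS, and without TEFM replicate 2 they were -2.11 and -1.62. The 6 libraries gave no batch label to set beside this spread.

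**Figure D2:**
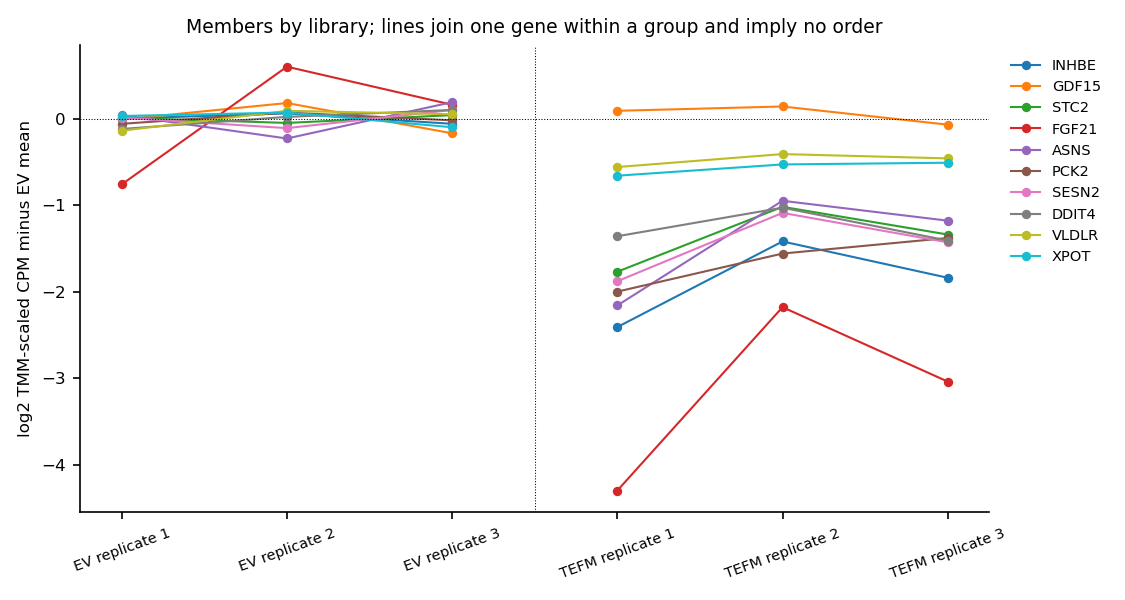
Level of each member in each library as log2 TMM-scaled CPM minus the gene's EV mean; lines join the libraries of 1 group and imply no order. In TEFM, INHBE, STC2, ASNS, SESN2 and FGF21 are lowest in replicate 1 and highest in replicate 2, while GDF15 stays near 0.

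Many other genes of the ATF4 programme were lower too. Over 4 lists with the members left out, 37 of 57 tested genes were lower, 7 higher and 13 not called, with a median log2 fold change of -0.32. Beside this, 21.7% of all tested genes were called in each direction. The lists were written from textbook knowledge with earlier results of these data known, so their direction is not independent evidence.

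Among ATF4 and its regulators, 8 of 18 were lower, 2 higher and 8 not called. The 10 called were 55.6%, beside 43.4% of all tested genes. ATF4 itself stood at 172 ± 9.31 and 158 ± 4.93 FPKM (log2 fold change -0.08, edgeR adjusted p = 0.103). TRIB3, a pseudokinase that binds ATF4, had a log2 fold change of -1.87, CHAC1, which degrades glutathione, -1.70, CEBPG, a dimer partner of ATF4, -1.11, and CEBPB, another partner, -1.27. The sensor kinase genes EIF2AK2, EIF2AK3 and EIF2AK4 were not called. EIF2AK1, the haem and mitochondrial stress sensor, and EIF2S1, the eIF2 alpha subunit, rose by log2 fold changes of 0.17 and 0.11. For EIF2S1 the groups overlapped (28.51 to 31.13 FPKM in EV, 30.90 to 32.57 in TEFM). Only 1 gene of this list was called higher when any library but EV replicate 3 was left out.

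The lists of metabolism, uptake and tRNA charging held further lower genes. Called in either direction were 88.9% of the tested serine and folate enzymes, 80% of the transporters and 90% of the tRNA synthetases. Beside this, 43.4% of all tested genes were called, 21.7% in each direction. Of 9 serine and folate enzymes, 7 were lower and 1, the proline synthesis enzyme ALDH18A1, was higher. PSAT1 of serine synthesis fell by 1.15 on the log2 scale, the folate enzyme MTHFD2 by 0.83, PSPH by 0.85 and PHGDH by 0.51. Of 10 tested amino acid transporters, 8 were lower and 0 higher. The 4 with the smallest p were the glycine transporter SLC6A9 (-1.25), the cationic amino acid transporter SLC7A1 (-0.70), SLC1A4 (-0.73) and SLC7A5 (-0.50). Of 20 cytosolic aminoacyl-tRNA synthetases, which charge the tRNA that XPOT exports, 14 were lower and 4 higher. GARS1 (-0.66), MARS1 (-0.50), TARS1 (-0.46) and YARS1 (-0.56) fell, while QARS1 (0.43), RARS1 (0.41), HARS1 (0.23) and FARSA (0.21) rose.

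**Figure D3:**
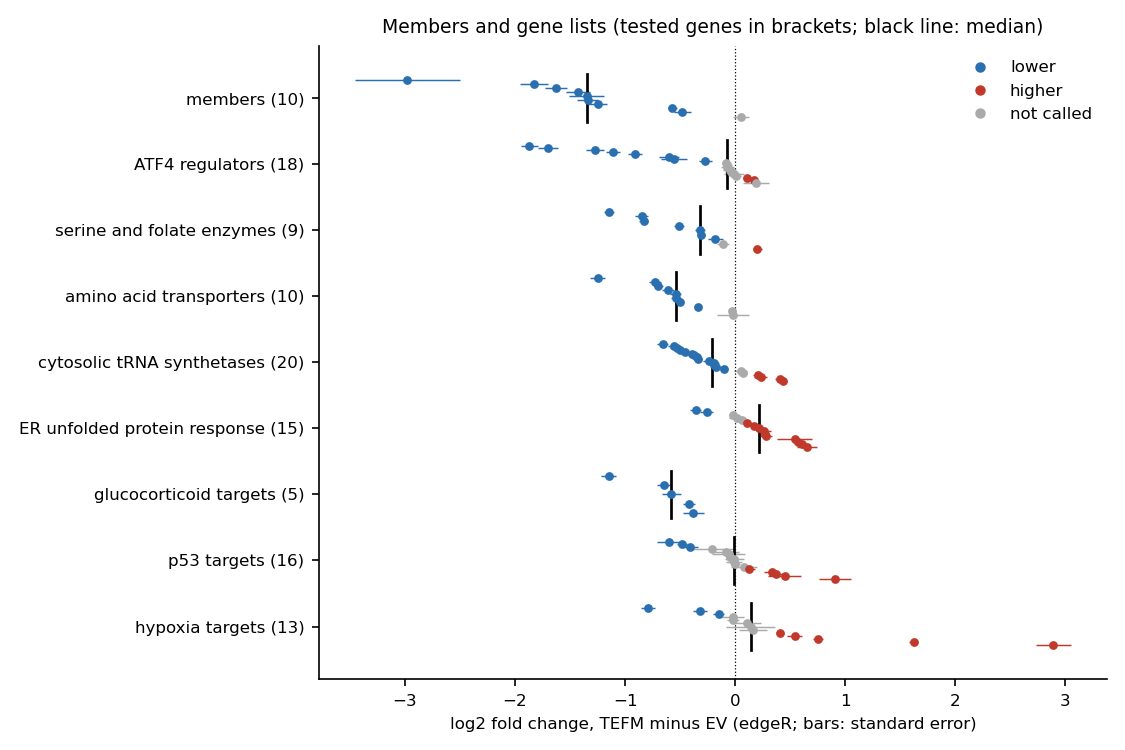
edgeR log2 fold changes, TEFM minus EV, for the tested members and for the tested genes of 8 lists (bars: standard error; blue, called lower; red, called higher; grey, not called; black line, median). The members' median is -1.35, the 4 ATF4 lists have medians from -0.54 to -0.08, and the endoplasmic reticulum list has a median of 0.22.

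Relatives of the members, genes of the same family or enzyme class, did not share 1 direction. Of 15, 9 were tested, 4 of them lower, 1 higher and 4 not called. The 5 called were 55.6%, beside 43.4% of all tested genes (21.7% in each direction), and nothing is read from so few genes. STC1, the other stanniocalcin, was 495 ± 12.1 FPKM in TEFM against 424 ± 5.45 in EV (log2 fold change 0.27), opposite in sign to STC2 (-1.34). In level it lay far above STC2 in both groups. FGF19, the bile acid hormone of the FGF21 subfamily, fell from 24.9 ± 0.266 to 16.1 ± 1.51 FPKM, and FGF23 was listed at 0.

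Among the sestrins, SESN3 fell from 12.4 ± 0.766 to 6.98 ± 0.17 FPKM, and SESN1, a p53 target, stood at 2.02 ± 0.163 and 1.87 ± 0.153 FPKM. DDIT4L, the close relative of DDIT4, stood at 4.5 ± 0.4 and 5.07 ± 0.558 FPKM. ASNSD1, which shares the synthetase domain of ASNS, fell by 0.41 on the log2 scale. The cytosolic enzyme PCK1 was listed at 0, so PCK2 carried all phosphoenolpyruvate carboxykinase RNA in the table. XPO1, the protein exportin, fell by 0.22 on the log2 scale, while the lipoprotein and reelin receptor LRP8 (0.13) and the microRNA exportin XPO5 (-0.02) were not called.

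The other inhibin and activin chains were low. INHA, INHBA, INHBB and INHBC had means between 0.00333 and 1.04 FPKM and were not tested, against 18.1 FPKM for INHBE in EV. INHBB stood at 0.63 ± 0.147 FPKM in EV and 1.04 ± 0.182 in TEFM. Without EV replicate 3, 2 relatives were called higher.

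**Figure D4:**
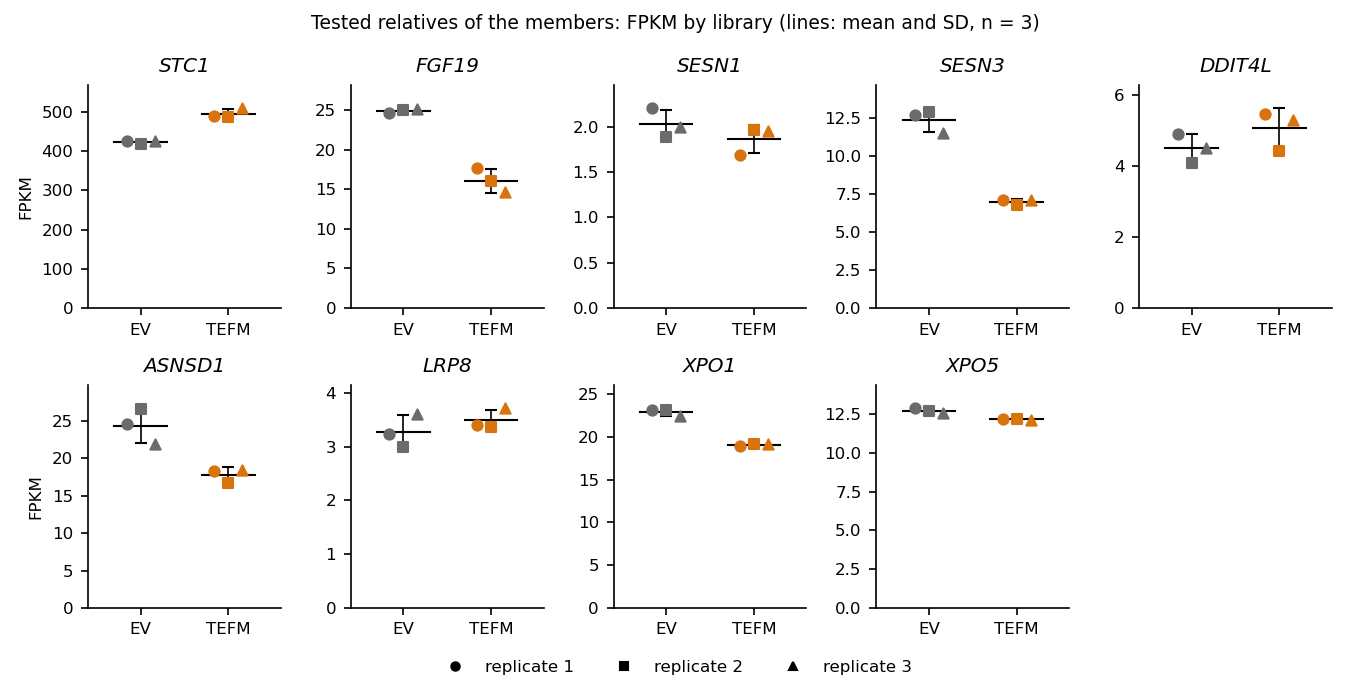
FPKM of the 9 tested relatives of the members in the EV (grey) and TEFM (orange) libraries; symbols mark replicates, lines the mean and bars the SD (n = 3). STC1 is higher in every TEFM library, FGF19, SESN3, ASNSD1 and XPO1 are lower in every TEFM library, and the groups overlap for SESN1, DDIT4L and LRP8 but not for XPO5.

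Receptors for the secreted members were sparse or mixed. GFRAL, the GDF15 receptor, was listed at 0, and its partner RET stood below 0.1 FPKM in both groups (0.0367 and 0.0633). KLB, the co-receptor that FGF21 needs, stood at 0.09 ± 0.01 and 0.0767 ± 0.0321 FPKM. Among FGF receptors, FGFR1 rose from 3.21 ± 0.131 to 4.38 ± 0.0513 FPKM and FGFR3 from 1.88 ± 0.146 to 2.97 ± 0.326 FPKM, while FGFR4 (log2 fold change -0.15) was not called and FGFR2 (0.13 ± 0.02 and 0.163 ± 0.0351 FPKM) was too low to test. KL, the co-receptor of FGF23, stood at 0.0533 ± 0.0751 and 0.0667 ± 0.00577 FPKM. Of the activin receptors, ACVR2A fell by 0.22 on the log2 scale, and ACVR1B (-0.04), ACVR1C (0.29) and ACVR2B (0.12) were not called. TGFBR3, an inhibin co-receptor (-0.01), and FSTL3, which binds activins (-0.01), were not called either, and the related gene FST stood at 0.27 ± 0.0954 and 0.263 ± 0.0839 FPKM.

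The VLDLR ligand gene RELN and its adaptor gene DAB1 were at or near 0. LRPAP1, the chaperone of this receptor family, rose by a log2 fold change of 0.31, and MYLIP, a ubiquitin ligase for such receptors (0.08), was not called. In all, 3 of 11 tested receptors and partners were higher and 1, ACVR2A, lower, with 0 lower when EV replicate 1, TEFM replicate 2 or TEFM replicate 3 was left out. The 4 called were 36.4%, beside 43.4% of all tested genes.

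SESN2 and DDIT4 act on the machinery of mTORC1 nutrient sensing. Of 28 tested genes of that list, 7 were lower, 3 higher and 18 not called, 10 in all or 35.7%, beside 43.4% of all tested genes. SESN3 (-0.79), the mTOR inhibitor DEPTOR (-0.86) and the GATOR2 subunits MIOS (-0.47) and SEH1L (-0.25) fell. RRAGA, a Rag GTPase, rose by a log2 fold change of 0.41. TSC1, TSC2, RHEB and RPTOR were not called, and MTOR fell by 0.18 on the log2 scale. The number called higher was 1 without EV replicate 1.

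Other stress pathways known to act on some members did not move as 1 group. In the endoplasmic reticulum unfolded protein response, which can also raise STC2 and DDIT4, 10 of 15 tested genes were higher and 2 lower. The 12 called were 80%, beside 43.4% of all tested genes (21.7% in each direction). The chaperone genes HSPA5 (0.57), HYOU1 (0.61) and HSP90B1 (0.27) rose, as did DNAJB9 (0.65). Of 16 p53 targets, which share GDF15 and SESN2 with the ATF4 programme, 5 were higher and 3 lower. The 8 called were 50%, near the 43.4% of all tested genes, so nothing is read from this mix. TNFRSF10B (-0.48) and CDKN1A (-0.41) fell, and PHLDA3 (0.91) and TP53INP1 (0.37) rose. The number of p53 targets called higher was 3 without EV replicate 1 and 1 when only genes averaging 5 FPKM or more were tested.

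Of 13 tested hypoxia targets, a class that also takes in DDIT4, 5 were higher and 3 lower. The 8 called were 61.5%, beside 43.4% of all tested genes. SLC2A1 (1.62), NDRG1 (2.89) and PFKFB3 (0.75) rose and VEGFA (-0.79) fell. All 5 tested genes of the glucocorticoid list, a hormone response that raises DDIT4, were lower, beside 21.7% of all tested genes. TSC22D3 fell from 22.1 ± 1.76 to 9.67 ± 0.745 FPKM, KLF9, FKBP5 and PER1 by 0.58, 0.42 and 0.38 on the log2 scale, and NR3C1, the receptor itself, by 0.65.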

How the data were processed

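Per the labels' protocols, RNA was extracted with TRIzol, selected with oligo(dT) beads, fragmented and primed at random. Reads were trimmed with cutadapt 1.9.1 and hg19 was named, per the submitters' processing notes, with aligner and counter not given in the sources used here. Coordinates in the table match GRCh38 instead (GENCODE v29 holds 58254 of the gene IDs, 99.9% of them at overlapping positions) and are printed as deposited.

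Per library, the authors deposited raw counts (whole numbers) and FPKM. The deposited FPKM could be recomputed, within 0.005, by scaling the counts to the table's exonic gene sizes and to library totals.

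Genes averaging 1 FPKM or more were tested with edgeR 4.0.16 in R 4.3.3 (two-sided quasi-likelihood F test after TMM scaling; Benjamini-Hochberg adjustment across the 14254 genes; threshold 0.05). Standard errors were derived from the F statistic. Motifs and intervals used Python 3.11.15 and scipy 1.17.1. Precision is limited by 3 libraries per group and, for FGF21, by few counts. Replicates differed beyond counting noise, with a chi-square of 2.09 to 3.91 per degree of freedom against 19.1 to 24.4 between groups.

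The members and 18 lists were chosen with earlier results of these data known. Named are all members, relatives and receptors by value or range, and up to 4 genes of each other list with the smallest p; other list members were named after their values were seen. Alternatives were median-of-ratios, upper-quartile and no composition scaling, other filters, DESeq2 1.42.0, limma 3.58.1 on log2(FPKM + 1) and log2(FPKM + 0.1), a block for replicate number and leaving out each library. No set test was run. Some genes of the lists are not reported here and are in no list count.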

Additional observations from a re-analysis of the deposited data

How the results depend on the processing

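The 9 lower members were called lower wherever they were tested, in all 15 alternative settings; at a mean FPKM of at least 5, VLDLR and FGF21 were not tested and 7 were called. GDF15 was called in none, and its log2 fold change of 0.05 ranged from -0.03 (without EV replicate 3) to 0.15 (without EV replicate 2); the cause was not tested. Over all tested genes, 3092 were higher and 3092 lower; at a mean FPKM of at least 5, where fewer genes are tested, 2046 were higher. With each library left out in turn, 2614 to 3152 were higher and 2543 to 3118 lower, members called lower stayed at 9 and higher at 0, and genes of the 4 ATF4 lists numbered 6 to 8 higher and 35 to 37 lower. Without composition scaling 2576 genes were higher and 3679 lower. Same-numbered libraries did not deviate together (correlations of -0.07, 0.02 and -0.03, and EV replicate 1 correlated best with TEFM replicate 3). With 3 libraries per group this cannot decide if the numbers pair the samples, and the labels state no pairing. With the replicate block, 2986 genes were higher and 2949 lower, and 9 members lower. Counts of single lists moved by over 1.5 times in 42 combinations of list, direction and setting, mostly between counts of 0 and 3. Depth limits FGF21 most.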

Other observations

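Within 1 Mb on either side, the tested neighbours of each member had a median log2 fold change between -0.20 (15 genes around ASNS) and 0.16 (49 genes around FGF21). None of the tested neighbours of INHBE (44), STC2 (12), FGF21 (49), ASNS (15), PCK2 (39), SESN2 (40), DDIT4 (18) or VLDLR (3) had a log2 fold change below that of the member, whereas 2 of 13 around XPOT did, and 18 of 44 around GDF15. The members were chosen with these fold changes known, and 1.58% of all tested genes had a called log2 fold change of -1 or lower. Nothing is therefore read from how few neighbours lay below them.

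PPARA and ChREBP, the product of MLXIPL, are known to control FGF21 in the liver. Of 9 tested genes of a list of these factors, their relatives and their targets, 4 were higher and 4 lower. The 8 called were 88.9%, beside 43.4% of all tested genes. PPARA rose by a log2 fold change of 0.63, and MLXIPL and PPARG fell by 0.38 and 0.30 on the log2 scale. CPT1A, the entry enzyme of mitochondrial fatty acid oxidation, rose from 24.5 ± 0.837 to 40.9 ± 1.25 FPKM, and PPARGC1A, a mitochondrial biogenesis coactivator, from 2.6 ± 0.262 to 4.72 ± 0.245 FPKM. TXNIP, a glucose-responsive arrestin, fell from 144 ± 32.5 to 46.8 ± 4.45 FPKM and its relative ARRDC4 from 27.9 ± 4.67 to 11.2 ± 0.493 FPKM.

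Around the enzymes, 6 of 12 tested genes of amino acid and phosphoenolpyruvate metabolism were higher and 3 lower. The 9 called were 75%, beside 43.4% of all tested genes. PKM, pyruvate kinase, MDH1, malate dehydrogenase, and ENO1, enolase, rose by log2 fold changes of 0.33, 0.21 and 0.16. For ENO1 the groups overlapped (220.28 to 240.14 FPKM in EV, 237.56 to 260.74 in TEFM). GOT1, an aspartate aminotransferase, fell by 0.21 on the log2 scale. Among 17 genes of nuclear export and tRNA maturation, 12 were not called, including RAN (132 ± 2.0 and 133 ± 4.18 FPKM), the GTPase that XPOT uses. The 5 called were 29.4%, beside 43.4% of all tested genes. XPO1 (-0.22) and RCC1 (-0.12) fell, and CLP1 (0.69), NXF1 (0.26) and ELAC2 (0.23) rose; with any library but TEFM replicate 1 left out, 1 of the 17 was called lower.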
